A study of Homo sapiens with 20 samples.

Results

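PSMB5, PSMB6 and PSMB7 encode the 3 proteolytic subunits of the constitutive 20S proteasome, and PSMB5 encodes the subunit that bortezomib and carfilzomib chiefly inhibit. The 3 genes were taken by symbol from a table of 18305 genes (NCBI gene IDs 5693, 5694 and 5695), and all 3 passed the filter on low values that left 13089 genes for testing. RNA was sequenced from 20 libraries in 10 groups with 2 replicates each. Unselected (WT) and bortezomib-resistant (BtzR) cells came from 4 lines, of which AMO1, RPMI-8226 and L363 are multiple myeloma lines and ARH-77 is a B-lymphoblastoid line. Carfilzomib-resistant (CfzR) cells were labelled for AMO1 and L363. All cells were grown in RPMI-1640 with serum, antibiotics and glutamine, the resistant cells with 90 nM of their drug and the WT cells without it. The resistant lines had been selected in culture in earlier work, and the sources used here do not say whether each is a single clone. A contrast of resistant with WT cells therefore holds both the selection and the drug present during growth, which cannot be told apart.

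The 20S proteasome is a barrel of stacked rings, and each inner ring carries the 3 active subunits. The β5 subunit (PSMB5) cleaves after hydrophobic residues, β2 (PSMB7) after basic residues and β1 (PSMB6) after acidic residues. Each is made with a propeptide that is removed during assembly to free an N-terminal threonine, the residue that attacks the substrate and that both drugs bind. Plasma cells secrete large amounts of antibody and depend on proteasomal degradation of misfolded protein, the basis of the use of these drugs in myeloma.

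The coding sequence around this threonine shows what the 3 genes share and is given in 60 bases each, 5′ to 3′ in the direction of the gene, from the GENCODE 29 transcripts of GRCh38. Capitals mark the threonine codon that becomes the first of the mature chain, found as the second codon of an in-frame glycine-threonine-threonine match. All 3 windows lie in coding exons and span an exon junction.
PSMB5: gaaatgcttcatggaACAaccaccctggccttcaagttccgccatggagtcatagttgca
PSMB6: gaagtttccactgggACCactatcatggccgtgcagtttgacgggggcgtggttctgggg
PSMB7: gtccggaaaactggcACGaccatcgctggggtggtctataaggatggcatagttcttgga
The PSMB5 window ran over exons 1 and 2 on the minus strand (chr14:23033651-23034719), with the capitals at codon 60 of 263. The PSMB6 window ran over exons 1 and 2 on the plus strand (chr17:4796282-4796772), with the capitals at codon 35 of 239. The PSMB7 window ran over exons 2 and 3 on the minus strand (chr9:124413988-124414883), with the capitals at codon 44 of 277. PSMB7 held a further match at codon 251, which is not shown. These are reference sequences, since the files hold expression values only and no variant of the 3 genes was examined.

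Expression was given as FPKM, the fragments of a gene scaled to transcript length and to the number of fragments mapped, so that levels can be compared between genes. Depth is unknown, since the values came without read counts, and no counting interval is given. The FPKM of all listed genes summed to 457317 to 494850 per library, and 10455 to 11023 genes reached 1 FPKM. Replicates of one group correlated at r = 0.986 to 0.998 across genes, lowest in ARH-77 WT. The study describes its replicates as biological, without saying whether they were separate cultures, so the p-values measure the spread between these libraries. Both libraries labelled AMO1 CfzR correlated with the 6 L363 libraries at r = 0.986 to 0.992 and with the other 4 AMO1 libraries at r = 0.878 to 0.883. They went against their label in this respect, so they are called the libraries labelled AMO1 CfzR and are set beside both AMO1 WT and L363 WT. Of 7 plasma cell markers, all 7 reached 1 FPKM in both libraries of every AMO1 and L363 group and 6 of 7 in RPMI-8226 and ARH-77. All 6 B cell markers did so in ARH-77, against 0 to 2 in the myeloma groups. The summed plasma cell markers were at 3360 to 3687 FPKM in AMO1 WT and 1707 to 1854 in AMO1 BtzR, and moved less between WT and BtzR in the other lines. T cell markers summed to at most 12.8 FPKM and myeloid markers to at most 8.56 FPKM in any library. Of 4 epithelial and stromal markers EPCAM and KRT18 reached 1 FPKM in all RPMI-8226 libraries. There the 4 summed to 132 to 159 FPKM, against at most 2.51 FPKM in the other lines. The part of these markers in the results was not tested.

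PSMB5 RNA was higher in bortezomib-resistant cells of all 4 lines, and PSMB5 was the only one of the 3 genes for which this held. Its level was 88.8 to 200.4 FPKM in the 8 BtzR libraries (median 129) and 43.2 to 71.6 FPKM in the 12 WT and CfzR libraries (median 56.6). The 2 sets did not overlap, which held for 5 of the 13089 genes in the higher direction (0.0382%). Among the others, named after their values were seen, were MAP4K5 and TOGARAM1, which lie on chromosome 14 as PSMB5 does, and EHBP1. PSMB6 (59.8 to 112 FPKM in BtzR, 56.4 to 153 in the rest) and PSMB7 (131 to 253 and 134 to 205 FPKM) overlapped between the same sets. In bulk RNA, a higher level in every cell and a larger share of cells with a high level cannot be told apart.

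**Figure D1:**
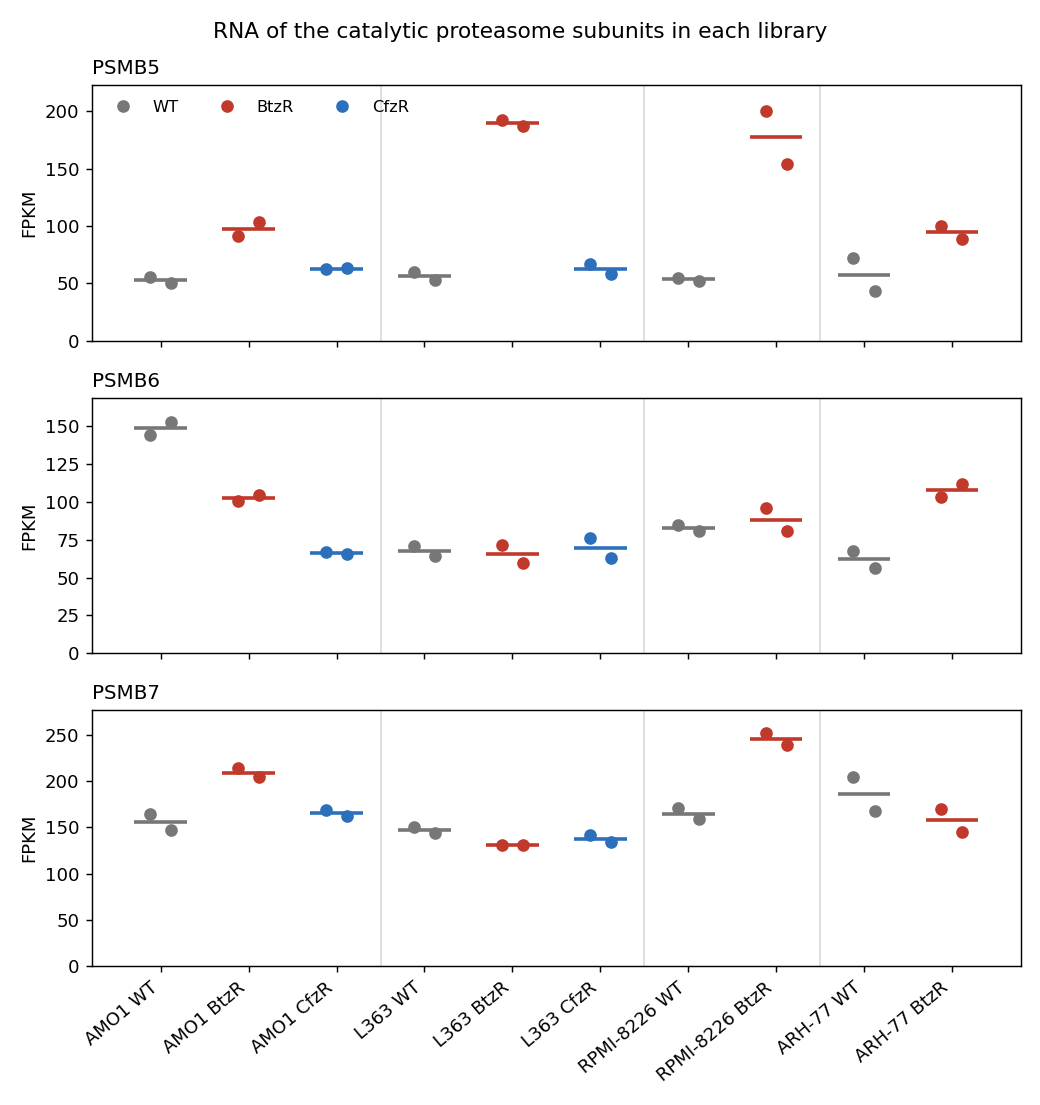
FPKM (linear axis from 0) of PSMB5, PSMB6 and PSMB7 in each of the 20 libraries by group. Points are libraries, horizontal bars are group means, and colours mark WT, BtzR and CfzR cells. All PSMB5 points of BtzR cells lie at or above 88.8 FPKM and all others at or below 71.6 FPKM, whereas the PSMB6 and PSMB7 points of the 3 kinds of cell intermix.

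In WT cells the PSMB5 levels of the lines overlapped. The 2 libraries gave 55.2 and 49.9 FPKM in AMO1 WT, 60.1 and 53.0 in L363 WT, 54.7 and 52.3 in RPMI-8226 WT and 71.6 and 43.2 in ARH-77 WT. The ARH-77 WT replicates were the farthest apart and spanned the other WT libraries, and PSMB5 was not among the 92.6% of genes that differed between the WT lines (limma's moderated F test, adjusted p = 0.932). Without the lower ARH-77 WT library the adjusted p was 0.0463. PSMB6 (adjusted p = 4.0e-07) and PSMB7 (adjusted p = 0.0261) were among those that differed. For PSMB7 the adjusted p was 0.178 without ARH-77 WT replicate 1, 0.0855 without L363 WT replicate 2 and 0.103 in the 8 WT libraries alone.

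In L363 BtzR cells PSMB5 reached 192 and 187 FPKM, the highest group mean (189.8 ± 3.44, SD, n = 2) and 3.36 times that of L363 WT (56.5 ± 5.0, n = 2). On the log2(FPKM + 1) scale the difference was 1.73 (SE 0.18, 95% interval 1.35 to 2.11, limma adjusted p = 8.1e-06). In this contrast 11.2% of genes passed an adjusted p of 0.05, and 1.02% were higher by at least 1 on the log2 scale as well, the criteria for a call. In RPMI-8226 BtzR cells PSMB5 was at 200.4 and 154 FPKM (177 ± 32.7, n = 2) against 53.5 ± 1.65 in RPMI-8226 WT, a ratio of 3.31. The log2 difference was 1.70 (95% interval 1.32 to 2.08, adjusted p = 1.3e-06), in a contrast where 54.3% of genes passed and 5.91% were called higher. The replicates of RPMI-8226 BtzR lay farther apart than those of L363 BtzR, and both stood above every library of the other 2 lines.

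The difference was smaller in AMO1 and ARH-77. PSMB5 was at 91.3 and 104 FPKM in AMO1 BtzR (97.4 ± 8.64, n = 2) against 52.5 ± 3.73 in AMO1 WT, a log2 difference of 0.88 (95% interval 0.50 to 1.26, adjusted p = 0.000823). In AMO1 51.2% of genes passed, and 25.6% of all tested genes passed as higher. In ARH-77 BtzR it was at 100.2 and 88.8 FPKM (94.5 ± 8.08, n = 2) against 57.4 ± 20.1 in ARH-77 WT, a log2 difference of 0.75 (95% interval 0.37 to 1.13, adjusted p = 0.0105), where 13.6% of genes passed and 5.98% passed as higher. The ARH-77 value rested on the WT library at 43.2 FPKM: without it the difference was 0.39 (adjusted p = 0.0839), and without the first BtzR library it was 0.66 (adjusted p = 0.0973). In a fit of the 4 ARH-77 libraries alone the adjusted p was 0.387.

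In the mean of the 4 lines with equal weight PSMB5 was 1.26 higher (SE 0.088, 95% interval 1.08 to 1.45, adjusted p = 3.1e-08), one of the 0.527% of genes called higher while 52.3% passed. The size of the difference varied between lines (F test of the difference, adjusted p = 0.00336, passed by 71.1% of genes). The SE of such a mean comes from the spread between replicate libraries and holds no spread between lines. Its interval and p-value therefore cover these 4 lines only, whose own PSMB5 differences ran from 0.75 to 1.73. The same holds for the means of PSMB6 and PSMB7 below.

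In the order of group means the 4 BtzR groups came first. L363 BtzR and RPMI-8226 BtzR overlapped, as did AMO1 BtzR and ARH-77 BtzR. A gap separated the first pair from the second and the second pair from the libraries labelled AMO1 CfzR. From there each neighbour in the order overlapped the next down to AMO1 WT, the lowest, and the highest mean was 3.61 times the lowest.

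No such rise of PSMB5 was measured in carfilzomib-resistant cells. L363 CfzR libraries held 66.4 and 58.1 FPKM, overlapping L363 WT, with a log2 difference of 0.14 (95% interval -0.24 to 0.51, adjusted p = 0.835) in a contrast where 8.47% of genes passed. Set directly against L363 BtzR, at the same 90 nM dose of the other drug, PSMB5 was lower by 1.60 in L363 CfzR (95% interval -1.98 to -1.22, adjusted p = 2.8e-05). In that contrast 6.13% of genes passed and 0.535% were called lower. PSMB6 differed by 0.09 (adjusted p = 0.911) and PSMB7 by 0.08 (adjusted p = 0.888). The libraries labelled AMO1 CfzR held 62.1 and 63.6 FPKM of PSMB5, 0.26 above AMO1 WT (adjusted p = 0.236) and 0.15 above L363 WT (adjusted p = 0.835), with 57.7% and 6.92% of genes passing in the 2 contrasts. In a fit of the AMO1 WT and AMO1 CfzR libraries alone the same 0.26 had an adjusted p of 0.0392.

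**Figure D2:**
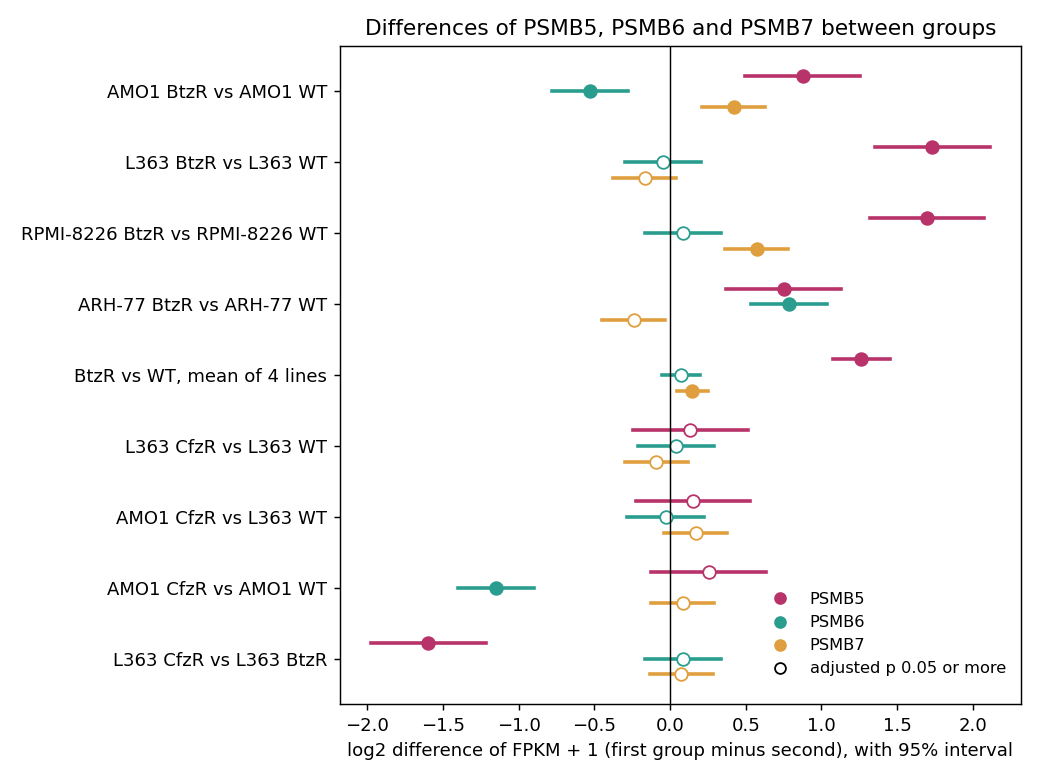
Differences of PSMB5, PSMB6 and PSMB7 in log2(FPKM + 1) between the groups named on the left, first minus second, from the limma fit. Points are estimates, lines are 95% intervals, and open points have an adjusted p of 0.05 or more. PSMB5 lies right of 0 in the 4 BtzR contrasts and at -1.60 where L363 CfzR is set against L363 BtzR.

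PSMB6, the caspase-like subunit, moved in opposite directions between lines. It was highest in AMO1 WT, at 144 and 153 FPKM, and lower in AMO1 BtzR at 100.5 and 104 FPKM, a log2 difference of -0.53 (95% interval -0.78 to -0.28, adjusted p = 0.00167). In AMO1 25.6% of genes passed as lower. In ARH-77 it was higher in BtzR, at 103 and 112 FPKM, than in WT, at 67.6 and 56.4 FPKM, a log2 difference of 0.79 (95% interval 0.54 to 1.04, adjusted p = 0.000313). In ARH-77 5.98% of genes passed as higher. In a fit of the 4 ARH-77 libraries alone the adjusted p of PSMB6 was 0.156.

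In L363 and RPMI-8226 the PSMB6 libraries overlapped between WT and BtzR cells. L363 WT held 70.9 and 64.4 FPKM and L363 BtzR 71.6 and 59.8 FPKM (log2 difference -0.05, adjusted p = 0.913). RPMI-8226 WT held 84.5 and 80.5 FPKM and RPMI-8226 BtzR 95.7 and 80.6 FPKM (0.09, adjusted p = 0.560). Over the 4 lines the mean difference was 0.08 (SE 0.059, adjusted p = 0.301), and the lines differed (F test, adjusted p = 6.7e-05). That mean was -0.16 without ARH-77 and 0.28 without AMO1.

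The level in L363 CfzR was 76.3 and 63.2 FPKM, which overlapped L363 WT (0.04, adjusted p = 0.976). The libraries labelled AMO1 CfzR held 67.0 and 65.4 FPKM of PSMB6. Against AMO1 WT this was a log2 difference of -1.15 (SE 0.12, adjusted p = 8.0e-07), among the 9.21% of genes called lower and the lowest of 33 core proteasome genes. Against L363 WT it was -0.03 (adjusted p = 1). In the order of group means AMO1 WT stood apart from all others, and the highest mean was 2.39 times the lowest.

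PSMB7, the trypsin-like subunit, had the highest level of the 3 in 17 of 20 libraries and the smallest spread between groups, with the highest mean 1.88 times the lowest. It was higher in RPMI-8226 BtzR, at 253 and 239.8 FPKM, than in RPMI-8226 WT, at 171 and 159 FPKM (log2 difference 0.57, SE 0.097, adjusted p = 0.000158). It was also higher in AMO1 BtzR, at 214 and 205 FPKM, than in AMO1 WT, at 165 and 148 FPKM (0.42, adjusted p = 0.00221). Of all tested genes 30.2% passed as higher in RPMI-8226 and 25.6% in AMO1.

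In L363 and ARH-77 the PSMB7 difference was of the other sign and did not pass. L363 WT held 150.3 and 144 FPKM and L363 BtzR 131 in both libraries (-0.17, adjusted p = 0.343). ARH-77 WT held 205 and 168 FPKM and ARH-77 BtzR 169.7 and 146 FPKM (-0.24, adjusted p = 0.128). The ARH-77 value had an adjusted p of 0.0323 after quantile normalization and 0.0371 with the replicate number as a block. The mean over the 4 lines was 0.15 (SE 0.049, adjusted p = 0.0193), and 25.5% of genes passed as higher in that comparison. It was 0.0058 without RPMI-8226 (adjusted p = 0.952) and 0.057 without AMO1 (adjusted p = 0.441). The lines differed in this effect (F test, adjusted p = 0.000163).

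PSMB7 was at 142 and 134 FPKM in L363 CfzR (-0.09 from L363 WT, adjusted p = 0.760). The libraries labelled AMO1 CfzR held 169 and 162 FPKM, 0.08 above AMO1 WT (adjusted p = 0.492) and 0.17 above L363 WT (adjusted p = 0.446). The WT lines were at 143.6 to 205 FPKM, with ARH-77 WT the highest mean.

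The share of PSMB5 in the summed FPKM of the 3 genes does not depend on how a library is scaled. It was 21.4% and 20.3% in L363 WT, 48.7% and 49.6% in L363 BtzR and 23.3% and 22.8% in L363 CfzR. In RPMI-8226 it went from 17.6% and 17.9% in WT to 36.5% and 32.5% in BtzR. In AMO1 it went from 15.2% and 14.2% to 22.5% and 25.1%, and in ARH-77 from 20.8% and 16.1% to 26.9% and 25.6%. In each line both BtzR libraries thus held a larger share than both WT libraries, and in L363 BtzR PSMB5 took nearly as much as the other two together.

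**Figure D3:**
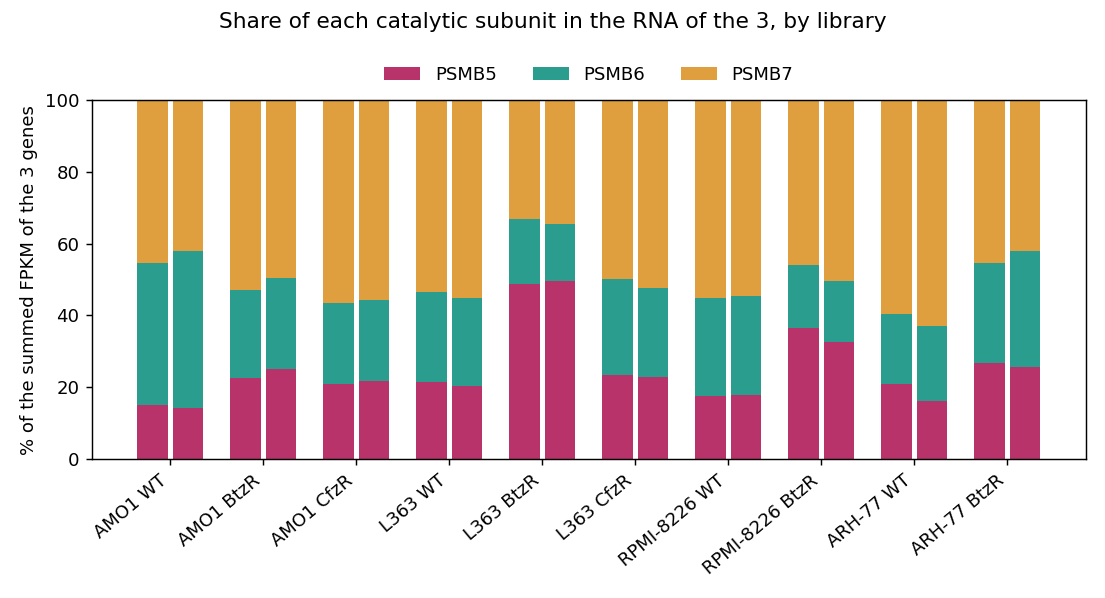
Share of PSMB5, PSMB6 and PSMB7 in their summed FPKM (%), 1 stacked bar per library, 2 bars per group. The PSMB5 segment is 48.7% and 49.6% in L363 BtzR and 32.5% to 36.5% in RPMI-8226 BtzR, against 14.2% to 21.4% in WT libraries.

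The within-library log2 ratios were compared between BtzR and WT by a two-sided exact permutation test with labels exchanged within lines (1296 arrangements, smallest possible p = 0.00154). PSMB5 over PSMB7 was higher by 1.12 on average (exact permutation p = 0.00154, adjusted over the 3 pairs 0.00463). It was higher by 0.46 in AMO1, 0.99 in ARH-77, 1.12 in RPMI-8226 and 1.90 in L363. PSMB5 over PSMB6 was higher by 1.19 (exact permutation p = 0.00617, adjusted 0.00926), with 1.41 in AMO1, 1.78 in L363 and 1.61 in RPMI-8226. It was -0.04 in ARH-77, where PSMB6 was as much higher as PSMB5. PSMB6 over PSMB7 differed by -0.07 on average (exact permutation p = 0.710, adjusted 0.710), with -0.95 in AMO1 and -0.49 in RPMI-8226 against 0.12 in L363 and 1.03 in ARH-77.

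The interferon-inducible counterparts PSMB8, PSMB9 and PSMB10, which replace PSMB5, PSMB6 and PSMB7 in the immunoproteasome, were all lower in RPMI-8226 BtzR, with log2 differences of -1.21 for PSMB8 (adjusted p = 8.3e-08), -1.82 for PSMB9 (adjusted p = 1.1e-08) and -0.36 for PSMB10 (adjusted p = 0.0183), in a contrast where 24.2% of genes passed as lower. In the other BtzR contrasts PSMB10 was higher in AMO1 (0.44, adjusted p = 0.00616), PSMB9 was lower in L363 (-0.44, adjusted p = 0.0341) and the rest did not pass. The ratio of PSMB5 to PSMB8 FPKM was 0.972 and 1.02 in RPMI-8226 WT and 8.87 and 6.79 in BtzR, and 1.66 and 1.5 in L363 WT and 5.78 and 6.06 in BtzR. It was 1.06 and 0.764 in AMO1 WT and 1.75 and 1.96 in BtzR, and 1.51 and 0.862 in ARH-77 WT and 2.33 and 2.17 in BtzR.

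No other gene of the proteasome lists was as much higher as PSMB5 in the mean of the 4 lines. In this comparison 25.5% of all tested genes passed as higher and 26.8% as lower, and the median of all genes was -0.0029. Of the 11 structural 20S genes 4 were higher and 3 lower (median 0.09), from PSMB3 at -0.34 to PSMA6 at 0.45. Of the 19 genes of the 19S cap, which recognises and unfolds ubiquitinated proteins, 2 were higher and 11 lower (median -0.19), from PSMD3 at -0.43 to PSMC1 at 0.28. None of the 4 activator genes PSME1 to PSME4 passed in limma (median -0.12), and 3 of them had an unadjusted p under 0.05. Of 9 assembly factors 1 was higher (PSMD5, 0.15) and 3 lower, with PAAF1 lowest at -0.64 (median -0.04).

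None of the 5 genes of the bounce-back response passed as higher in the mean of the 4 lines. In this response NFE2L1, the transcription factor NRF1, is processed with the help of DDI2, NGLY1, VCP and SYVN1 and raises many proteasome genes at once when the proteasome is inhibited. NFE2L1 differed by 0.07 (adjusted p = 0.427) and the other 4 were lower, from DDI2 at -0.17 to SYVN1 at -0.42. In AMO1 BtzR alone NFE2L1 was higher by 0.55 (adjusted p = 0.00487) and the other 4 were lower. Of all tested genes 25.6% passed as higher and 25.6% as lower in that contrast. PSMB5 ranked first of the 33 catalytic, structural 20S and 19S genes in L363 BtzR, RPMI-8226 BtzR and the mean. It ranked second in AMO1 BtzR, after PSMA6 (1.22), and at place 4 in ARH-77 BtzR. First place was not limited to BtzR cells: PSMB5 also held it in L363 CfzR against L363 WT, with a difference of 0.14 that did not pass. No gene of these lists other than PSMB5 reached a log2 difference of 1 in the mean of the 4 lines.

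**Figure D4:**
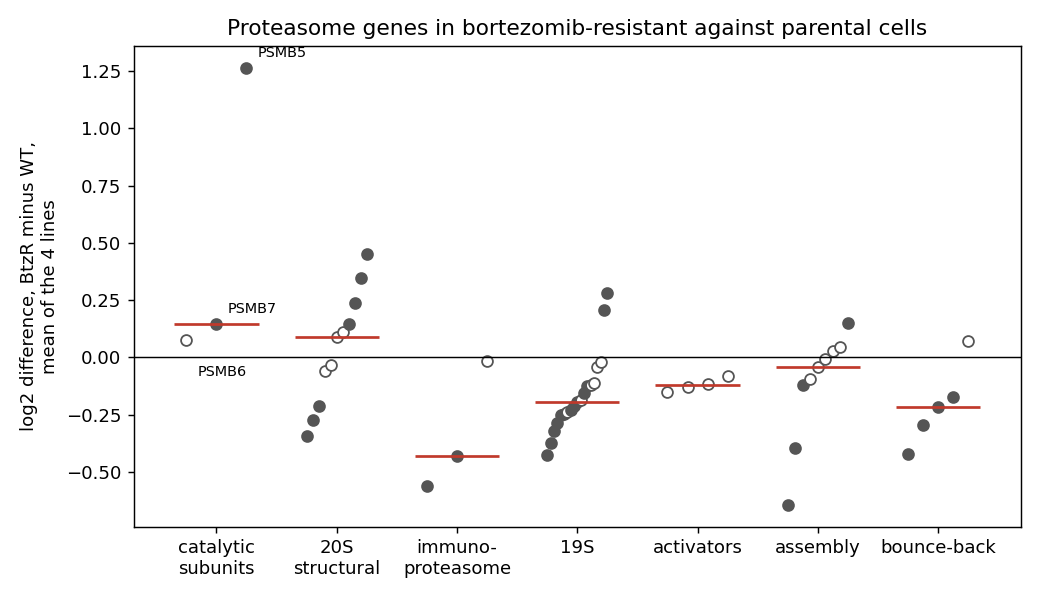
Mean log2 difference of BtzR from WT cells over the 4 lines for each gene of the proteasome lists. Filled points have an adjusted p under 0.05, open points do not, and red lines are list medians. PSMB5 lies at 1.26, and every other gene lies between -0.64 and 0.45.

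In L363 BtzR, where PSMB5 was highest, 5 of the 11 structural 20S genes were lower and 1 was higher (PSMB1, 0.76, adjusted p = 3.7e-05), 2 of 19 19S genes were lower and none of the 5 bounce-back genes passed in limma, 3 of them with an unadjusted p under 0.05. Among all genes in this contrast 5.66% passed as higher and 5.52% as lower.

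Several protein-coding genes next to PSMB5 on chromosome 14 were higher with it in BtzR cells. In L363 and RPMI-8226 they formed an unbroken run of called genes with PSMB5. Their order is that of RefSeq on GRCh38.p14, and this window was chosen after the values were seen. In L363 BtzR an unbroken run of 7 tested genes was called higher, RBM23 (1.81), PRMT5 (1.76), HAUS4 (2.03), AJUBA (1.75), C14orf93 (1.10), PSMB5 (1.73) and CDH24 (4.45). PRMT5, an arginine methyltransferase, went from 72.1 and 74.0 FPKM in L363 WT to 244 and 256 in L363 BtzR and was at 81.9 and 72.8 in L363 CfzR. CDH24, a cadherin, went from 2.52 and 3.10 FPKM to 84.1 and 79.7 and was at 4.13 and 4.0 in L363 CfzR. On the far side of CDH24, ACIN1 differed by 0.24 (adjusted p = 0.258) and C14orf119 by -0.31. On the other side REM2 was higher by 0.72 and LRP10 by 1.59 beyond the run. REM2 went from 0.49 and 0.33 FPKM in L363 WT to 1.34 and 1.29 in L363 BtzR, and LRP10 from 24.1 and 24.9 to 77.3 and 73.7. At levels as low as those of REM2 the added 1 FPKM shrinks a log2 difference. The RBM23 edge is thus that of the unbroken run of called genes, since REM2 and LRP10 beyond it were also higher. MRPL52, farther out than LRP10, was not higher, at 30.8 and 26.4 FPKM in L363 WT and 24.8 and 21.8 in L363 BtzR. Over the other 413 tested genes of chromosome 14 in the same contrast the median was 0 and 11.6% passed as higher. That share counts genes without the log2 difference of 1 that a call needs. Of all tested genes 1.02% were called higher in L363 BtzR.

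In RPMI-8226 BtzR the run had a different extent, with PSMB5 (1.70), CDH24 (1.52), ACIN1 (1.51) and C14orf119 (1.46) called higher. PSMB5 was at its edge. Over the other 413 tested genes of chromosome 14 the median was 0.28 and 49.6% passed as higher in this contrast, a looser rule than a call. Of all tested genes 5.91% were called higher in it. C14orf93 on the other side differed by -0.03 (adjusted p = 0.924) and SLC7A8 beyond C14orf119 by -0.04. SLC7A8 was at 0.08 and 0.07 FPKM in RPMI-8226 WT and 0.02 and 0.07 in BtzR, and RNF212B after it was also near 0. Genes this low cannot show where the rise ended on that side. HOMEZ, the next tested gene, went from 5.88 and 5.43 FPKM to 8.53 and 7.66. ACIN1, a splicing and apoptosis factor, went from 52.7 and 52.3 FPKM in RPMI-8226 WT to 157 and 147 in BtzR, and was at 61.0 and 66.1 in L363 WT and 73.5 and 76.4 in L363 BtzR. C14orf119 went from 9.56 and 9.29 to 28.8 and 26.7 FPKM in RPMI-8226. PSMB5 and CDH24 were the genes common to both runs.

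In L363 CfzR against L363 WT none of the 10 nearest tested genes, 5 on each side, passed in limma (-0.18 to 0.41), and 1 had an unadjusted p under 0.05. Against L363 BtzR the same 7 genes from RBM23 to CDH24 were called lower, by -1.15 to -4.03. In AMO1 BtzR 8 of the 10 neighbours were higher (median 0.67, range 0.14 to 1.73), with 56.4% of the other chromosome 14 genes passing as higher (median 0.44). HAUS4 (1.32), AJUBA (1.03), CDH24 (1.62) and SLC7A8 (1.73) were called higher there, as were 4.61% of all tested genes. SLC7A8 was low, at 2.54 and 2.90 FPKM in AMO1 BtzR. PSMB5 itself, at 0.88, was below the log2 difference of 1, so no run around it was counted in AMO1. In ARH-77 BtzR 4 of the 10 were higher (median 0.35), with 32.7% of the other chromosome 14 genes (median 0.07). DNA was not measured in these samples.

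**Figure D5:**
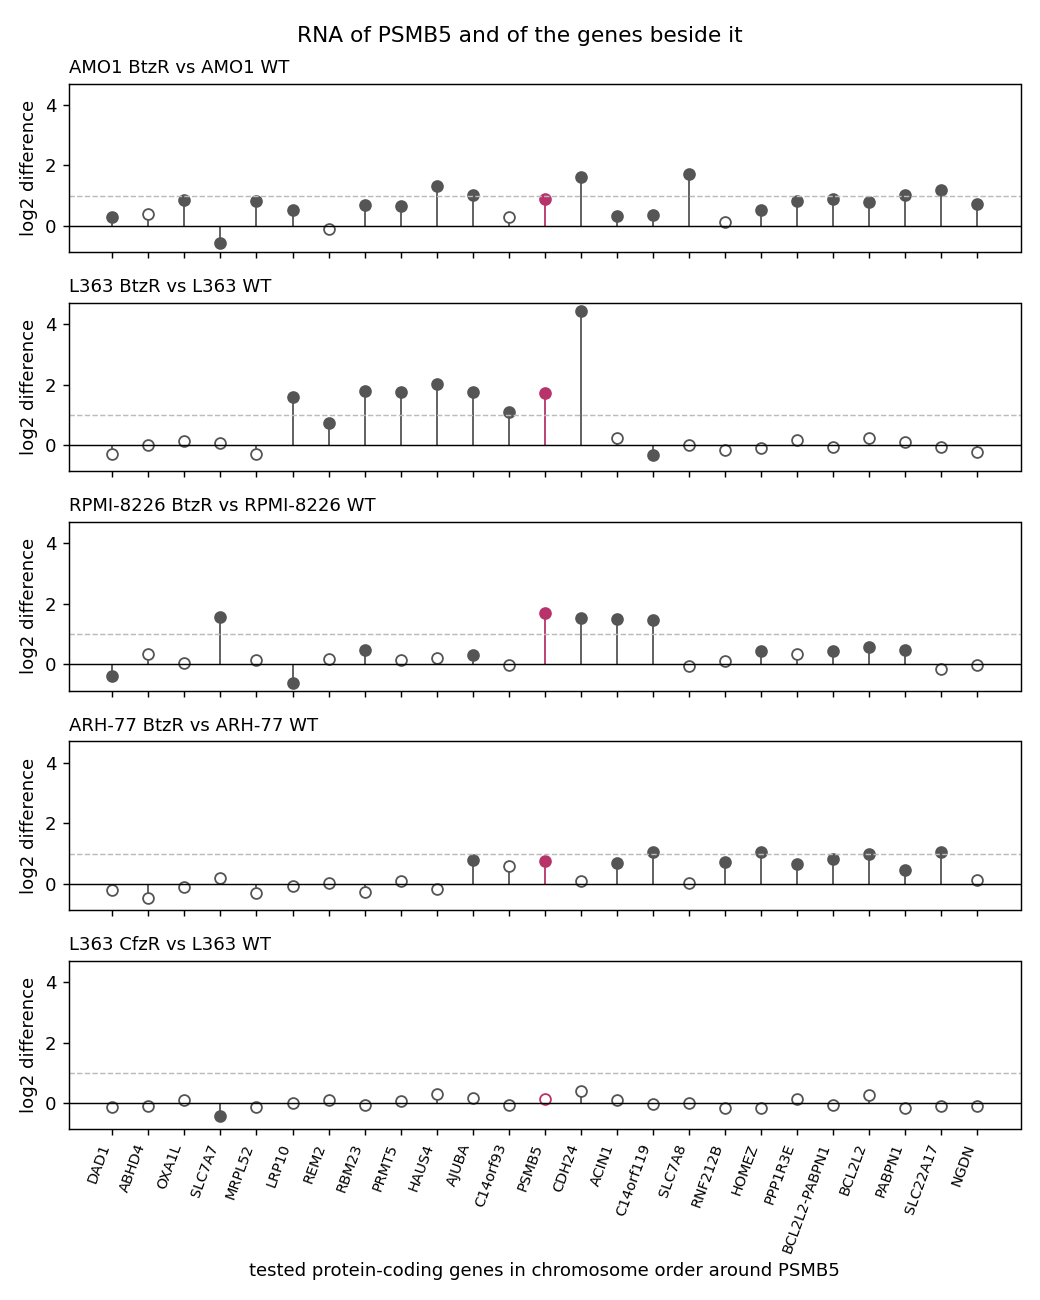
Log2 difference of PSMB5 (magenta) and of the 12 nearest tested protein-coding genes on each side, in chromosome order and not to scale, in the 4 BtzR contrasts and in L363 CfzR. Filled points have an adjusted p under 0.05 and the dashed line marks 1. The unbroken run of called genes goes from RBM23 to CDH24 in L363 BtzR, with REM2 and LRP10 also raised beyond RBM23. In RPMI-8226 BtzR it goes from PSMB5 to C14orf119, and no such run is seen in L363 CfzR.

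Among the neighbours of PSMB6 and PSMB7, the genes that passed were mostly of the same direction as the subunit in the contrasts where it passed. In AMO1 BtzR, where PSMB6 differed by -0.53, 8 of its 10 nearest tested genes on chromosome 17 were lower (median -0.63), and 51.8% of the other 801 tested genes of that chromosome passed as lower (median -0.34). In ARH-77 BtzR, where PSMB6 differed by 0.79, 5 of the 10 were higher (median 0.44). Those 5, from PLD2 to RNF167, all lay on the same side of PSMB6. Of the other genes of that chromosome 6.49% passed as higher in this contrast (median -0.08). Around PSMB7 on chromosome 9, 8 of 10 neighbours were higher in RPMI-8226 BtzR (median 0.65, PSMB7 0.57) and 8 of 10 in AMO1 BtzR (median 0.49, PSMB7 0.42). On that chromosome 38.0% and 40.3% of the other genes passed as higher in these 2 contrasts.

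The RefSeq promoter table held PSMB5 and no entry for PSMB6 or PSMB7. The 250 bases before the outermost PSMB5 start (GRCh38.p14, minus strand, chr14:23035221-23035470) are shown because NRF1 acts through antioxidant response elements in proteasome promoters, and capitals mark the only match found to the letters searched.
PSMB5 promoter: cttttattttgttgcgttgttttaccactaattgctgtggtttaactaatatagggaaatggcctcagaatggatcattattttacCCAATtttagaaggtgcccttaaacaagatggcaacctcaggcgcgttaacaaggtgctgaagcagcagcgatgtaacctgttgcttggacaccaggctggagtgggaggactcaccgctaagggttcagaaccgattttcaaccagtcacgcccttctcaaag
Both strands were searched for the CCAAT box, for the antioxidant response element with the letters TGACNNNGC and for the GC box with the letters GGGCGG. The CCAAT box was found once, overlapping no other match and beginning 164 bases before the start, and was in 32% of 35116 promoters of the same length. The antioxidant response element, in 10.9% of promoters, and the GC box, in 42.6%, were not among these letters. A second PSMB5 start listed by RefSeq had none of the 3.

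Each gene followed its own pattern over the 10 group means of log2(FPKM + 1). Pearson's r was -0.03 between PSMB5 and PSMB6, 0.26 between PSMB5 and PSMB7 and 0.21 between PSMB6 and PSMB7, as a description over 10 groups that share cell lines. The tested genes most like PSMB5 included EHBP1 (r = 0.80), PANO1 (0.79), SAV1 (0.78) and UBTF (0.77). The 5 most like PSMB6 were VWA5A (0.93), ID1 (0.90), RPL26 (0.89), BORCS6 (0.89) and KCNMB4 (0.88), of which VWA5A did not exceed 1.19 FPKM in any group mean. The 5 most like PSMB7 were CKS2 (0.95), CINP (0.95), ETFA (0.94), C1orf112 (0.94) and PELO (0.94). SAV1 lay on the chromosome of PSMB5, RPL26 and BORCS6 on that of PSMB6 and CKS2 on that of PSMB7, where 3.18%, 6.23% and 4.07% of tested genes lie. None of the genes named here is a subunit of the proteasome. Without the libraries labelled AMO1 CfzR, 4 of the 5 most similar genes were shared for PSMB6 and 1 for PSMB7.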

How the data were processed

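RNA of 20 libraries of established human cell lines was extracted, made into libraries and sequenced by BGI on the BGISEQ-500. The authors deposited FPKM values per gene and replicate, scaled by transcript length and mapped fragments. The submitters' processing notes list HISAT2 2.0.4, Bowtie2 2.2.5 and RSEM 1.2.12, and the genome build is not given in the sources used here. RefSeq lists a pseudogene of PSMB7 and long noncoding RNAs that overlap it, and whether fragments were assigned by strand is not stated.

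Libraries were grouped by line and drug in their labels. Groups were compared with limma 3.58.1 (R 4.3.3) on log2(FPKM + 1), with a mean per group over all 20 libraries (10 residual degrees of freedom), a mean-variance trend and Benjamini-Hochberg adjustment over the 13089 genes whose mean reached 1 FPKM in any group. A gene passed at an adjusted p under 0.05 and was called where its absolute log2 difference was also at least 1. Group values are means ± SD of 2 libraries. A permutation test of a single gene was not used between 2 libraries and 2. Ratios between the genes were compared by an exact permutation test within lines.

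The genes followed, the proteasome lists and the tests were chosen with earlier results of these data known. The text names PSMB5, PSMB6 and PSMB7, their immunoproteasome counterparts, the lowest and highest genes of each list and the 5 genes with the highest Pearson r to each. One gene that this rule names for PSMB5 is not reported here. Other genes were chosen after their values were seen. Alternatives were a pseudocount of 0.1, no filter or one of 5 FPKM, equal library sums, quantile normalization, no trend, the replicate number as a block, only the compared libraries, omission of the libraries labelled AMO1 CfzR and of each library. Leaving out each line and the wider window of 20 genes per side were added later. On simulated data for AMO1 BtzR against WT (12660 genes), 40 of 67 genes changed by 0.5 on the log2 scale passed in the right direction, 62 of 67 by 1 and 66 of 66 by 2, and 12 of 12460 unchanged genes passed. The simulated noise was independent and had the same spread in all groups for a given gene. In the data the median difference between replicates on the log2 scale was 0.209 in ARH-77 WT and 0.068 in AMO1 CfzR. The simulation therefore cannot show how unequal spread between groups affects the tests. Sequences and tables were handled in Python 3.11.15 (pandas 2.3.3, numpy 2.4.6, matplotlib 3.10.9).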

Additional observations from a re-analysis of the deposited data

Results flagged for a closer look

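The difference between BtzR and WT cells was not the same in the 4 lines for any of the 3 genes, as tested by a moderated F test in limma. For PSMB5 (adjusted p = 0.00336) the log2 difference was positive in all 4 lines and ranged from 0.75 in ARH-77 to 1.73 in L363. For PSMB6 (adjusted p = 6.7e-05) it ranged from -0.53 in AMO1 to 0.79 in ARH-77. For PSMB7 (adjusted p = 0.000163) it ranged from -0.24 in ARH-77 to 0.57 in RPMI-8226. Of all tested genes 71.1% passed this test.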

How the results depend on the processing

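PSMB5 kept its direction under every alternative run in the 4 BtzR contrasts and their mean, and its side of the threshold in AMO1, L363, RPMI-8226 and the mean (log2 difference 1.11 to 1.44). In ARH-77 it did not pass in the fit of the compared libraries alone (0.75, adjusted p = 0.387), and leaving out 1 library gave 0.39 to 1.11. The changes in ratio between the 3 genes moved by less than the spread between replicates (51 of 51 values). In ARH-77 PSMB6 did not pass among the compared libraries alone (0.79, adjusted p = 0.156). In that fit limma passed 0 genes, and 1867 had an unadjusted p under 0.05. PSMB7 passed there after quantile normalization (-0.27), and ran from -0.38 to -0.098 without 1 library. PSMB5 of the libraries labelled AMO1 CfzR passed against AMO1 WT in the fit of those libraries alone (0.26). PSMB7 in the same contrast was -0.0033 after quantile normalization.

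Small PSMB6 differences that did not pass changed sign: in L363 BtzR 0.012 with equal sums, 0.0013 after quantile normalization and -0.17 to 0.081 without 1 library. Without 1 library it also ran from -0.096 to 0.17 in L363 CfzR, from -0.034 to 0.21 in RPMI-8226 BtzR, from -0.098 to 0.040 for AMO1 CfzR against L363 WT and from -0.049 to 0.22 for L363 CfzR against L363 BtzR. The mean over lines of PSMB6 was 0.28 without AMO1 (adjusted p = 0.00412) and -0.16 without ARH-77. The mean of PSMB7 was 0.057 without AMO1, 0.0058 without RPMI-8226 and 0.11 to 0.18 without 1 library, where omission of ARH-77 BtzR replicate 1 gave an adjusted p of 0.0540. Between the WT lines the adjusted p without 1 library ran from 0.0463 to 0.981 for PSMB5 and from 0.00316 to 0.178 for PSMB7, and it was 0.103 for PSMB7 in the 8 WT libraries alone. Causes were not tested.

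The labels share replicate numbers between groups, but nothing says that libraries of one number were handled together, and their deviations correlated at r = -0.0055 to 0.245. With the replicate block PSMB7 in ARH-77 BtzR passed (-0.24, adjusted p = 0.0371), no other call of the 3 genes changed, and genes passing went from 1778 to 2105 in ARH-77.

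With a pseudocount of 0.1 the genes called went from 1201 to 1919 in AMO1 BtzR, 270 to 580 in L363 BtzR, 253 to 546 in L363 CfzR, 1809 to 2722 in RPMI-8226 BtzR, 210 to 473 in ARH-77 BtzR, 217 to 494 for AMO1 CfzR against L363 WT, 193 to 383 for L363 CfzR against L363 BtzR and 222 to 760 in the mean. With the compared libraries alone 455 genes passed in L363 CfzR (1108 as reported) and 212 for L363 CfzR against L363 BtzR (803), where 109 were called. Leaving out 1 library gave as few as 784 genes passing in L363 BtzR, 1019 to 3140 in ARH-77 BtzR, 521 for AMO1 CfzR against L363 WT and 472 for L363 CfzR against L363 BtzR. The mean over 3 lines called 132 to 437 genes.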
